A study of Mus musculus with 12 samples.

Results

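Primary granules, also called azurophil granules, are the first granules a developing neutrophil makes, and 6 mouse genes of these granules were followed here. Myeloperoxidase (Mpo), neutrophil elastase (Elane), proteinase 3 (Prtn3), cathepsin G (Ctsg) and the trypsin-like serine protease Prss57 are granule contents. Cathepsin C (Ctsc) is the lysosomal protease that activates the serine proteases. The 6 were listed by name as granule genes of promyelocytes, but with earlier results of these data known. All 6 were found among the 21853 genes of the table. Mpo is a peroxidase and no protease, and Ctsc is also made by cells other than neutrophils, so the set is wider than its proteases.

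RNA of whole bone marrow from B6 mice was sequenced in 4 groups of 3 libraries, 12 in all. Control mice were neither irradiated nor given DEIX, which the series title names as deinoxanthin. TBI mice had received 5 Gy to the whole body at 0.66 Gy per minute and 100 µL of olive oil vehicle. TBI+DEIX mice had the same irradiation and 25 mg of DEIX per kg body weight daily for 14 days, and DEIX mice had that dose for 14 days without irradiation. Marrow was taken on day 14. Neither a vehicle for the control mice nor the age of the mice is given in the sources used here. The labels number the libraries of a group but do not say that each came from a separate mouse, so the spread between libraries may be partly technical, and p-values measure only that spread.

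Neutrophil serine proteases are transcribed for a short time, at the promyelocyte stage, and transcription has largely stopped when the secondary granules form, so the mature cell carries the protein with little of the messenger. They are made as inactive precursors. Ctsc removes a dipeptide from the amino end of each, and the active enzyme is then held in the granule on the proteoglycan serglycin. Mpo, a heme enzyme, makes hypochlorous acid from chloride and hydrogen peroxide when granules fuse with a phagosome.

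Values were FPKM, a count of sequenced fragments divided by the library's mapped total and by the length of the transcript. FPKM is thus a level per length and can be set side by side between genes. How many reads a library had is unknown. Low values step in whole reads, and the FPKM worth 1 read was between 0.877 and 1.9 times that of control replicate 1 in the libraries other than TBI+DEIX replicate 1, so depth was unequal. For TBI+DEIX replicate 1 this estimate was no better than the next best, and that library stood apart from the others of its group. The within-group standard deviation of log2(FPKM + 1), as a root mean square over tested genes other than S100a8, S100a9 and Ngp, was lowest in control (0.140), and it was 0.225 for TBI, 0.236 for DEIX and 0.418 for TBI+DEIX. Markers of promyelocytes, later neutrophils, monocytes, erythroid cells and B lineage cells were all present in the control libraries, as the label of whole marrow has it. In bulk marrow, fewer cells of a type and less RNA per cell cannot be told apart.

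The 4 granule enzymes Mpo, Elane, Prtn3 and Ctsg were among the strongly expressed genes of the marrow, whereas Prss57 and Ctsc were at lower levels. Over the 12 libraries the median level was 1404 FPKM for Mpo, 882 FPKM for Elane, 515 FPKM for Prtn3, 298 FPKM for Ctsg, 98 FPKM for Ctsc and 20.8 FPKM for Prss57. Ranked from the highest gene in each library, Mpo stood between 15 and 123, and Ctsg between 186 and 544. Prss57 ranked between 3027 and 4927. The order Mpo, Elane, Prtn3, Ctsg, Ctsc, Prss57 was seen in 11 of the 12 libraries. In TBI+DEIX replicate 1, Prtn3 at 567 FPKM was above Elane at 516 FPKM. Neighbours in that order were not always separated by their spread, since the Mpo and Elane libraries overlapped in control, TBI and DEIX, and the Elane and Prtn3 libraries overlapped in all groups but control. Ctsc and Prss57 did not overlap in any group. Together the 6 genes summed to between 2843 and 3991 FPKM in control mice, 1876 and 3677 FPKM after TBI, 1827 and 3032 FPKM after TBI+DEIX, and 3139 and 5070 FPKM with DEIX alone.

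**Figure D1:**
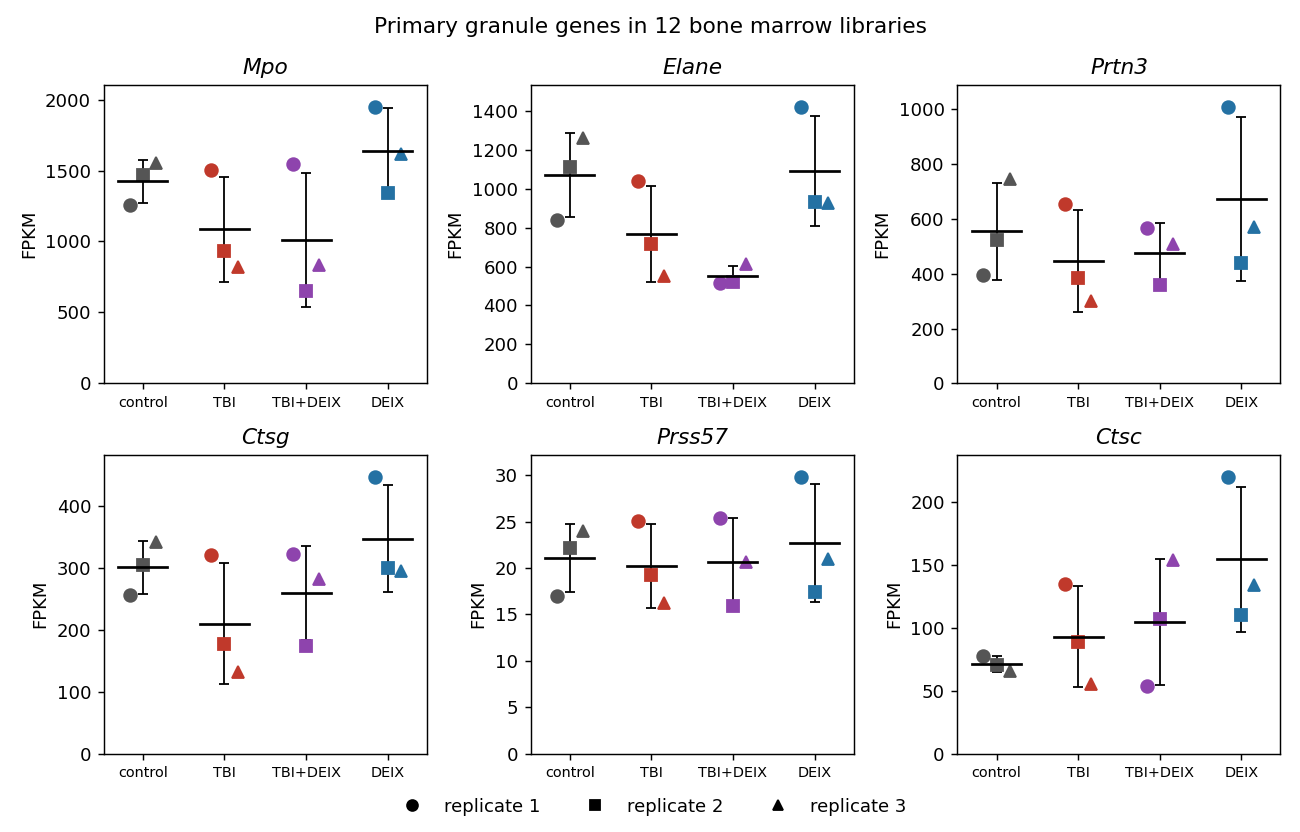
FPKM (vertical axes, starting at 0) of the 6 granule genes in each library of the 4 groups, with marker shape for the replicate number, a bar for the group mean and whiskers for 1 standard deviation. DEIX replicate 1 is the highest point in every panel, and the TBI+DEIX points of Elane, between 516 and 612 FPKM, lie below all control points.

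Each group was then compared with its control by limma on log2(FPKM + 1), with Benjamini-Hochberg adjustment over the 10994 genes that passed a filter of at least 1 FPKM in at least 3 libraries. A gene was called at an adjusted p under 0.05, and all 6 genes passed the filter. Of the 6, limma called 0 in TBI against control, where 3.99% of all tested genes were called, and 0 of the 6 had an unadjusted p under 0.05 (18.1% of all genes did). In DEIX against control 0 of 6 were called beside 7.24% of all genes, and 1, Ctsc, had an unadjusted p under 0.05 (24.7% of all genes did). In TBI+DEIX against TBI 0 of 6 were called beside 8.1% of all genes, and 0 of 6 had an unadjusted p under 0.05 (27.2% of all genes did). In TBI+DEIX against control 1 of 6, Elane, was called, where 30% of all genes were called in either direction and 13.1% were called lower, and it was also the 1 gene of the 6 with an unadjusted p under 0.05 (41.6% of all genes had one). The interaction, which is the DEIX difference in irradiated mice minus that in unirradiated mice, called 0 of 6 beside 0.2% of all genes, and 0 of 6 had an unadjusted p under 0.05 (7.5% of all genes did). A count of 0 or 1 of 6 is not far from the background of any of these comparisons. The comparisons share libraries, TBI+DEIX against control and against TBI in particular, and are given side by side.

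**Figure D2:**
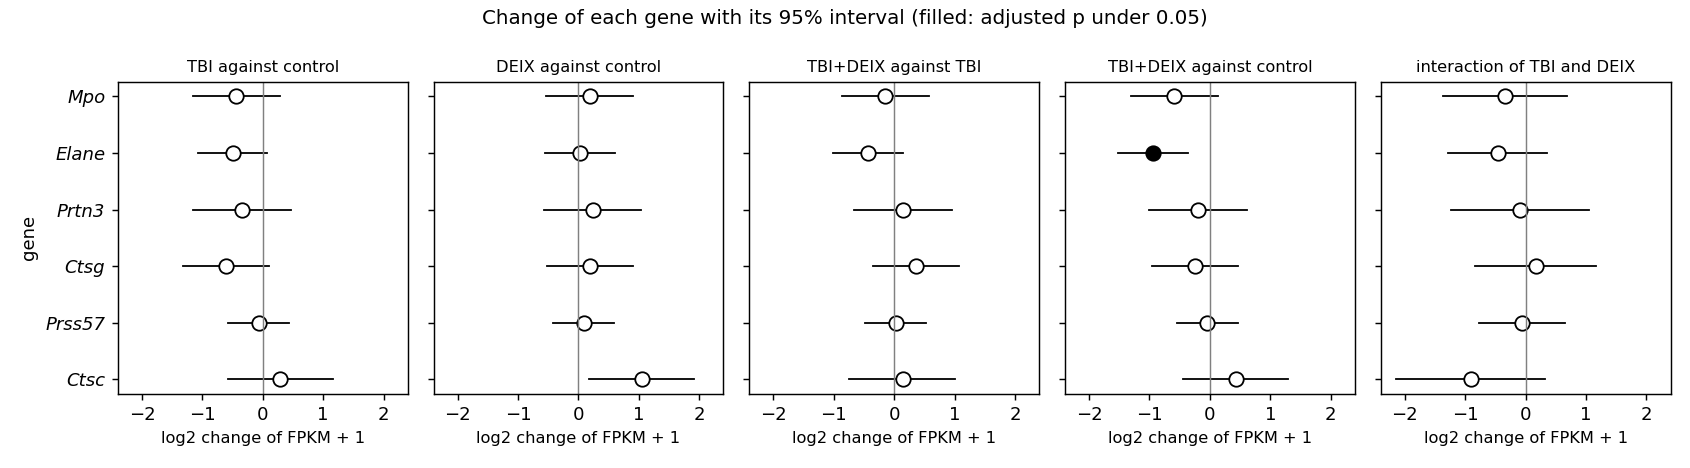
Change of log2(FPKM + 1) for the 6 genes (rows) in 5 limma comparisons (panels), with 95% intervals as lines and filled points where the adjusted p is under 0.05. Elane in TBI+DEIX against control, at -0.94, is the 1 filled point.

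Mpo (ENSMUSG00000009350.13) lies on chr11:87793581-87804413 of the GRCm38 mouse genome, plus strand. Its level was 1258, 1465 and 1554 FPKM in control replicates 1 to 3, and 1504, 930 and 821 FPKM in TBI replicates 1 to 3. It was 1547, 651 and 834 FPKM in TBI+DEIX and 1947, 1342 and 1619 FPKM in DEIX, again in replicate order. In both irradiated groups replicate 1 was at the level of the controls and the other 2 libraries were below every control library. The group mean was 1426 ± 152 FPKM (SD, n = 3) in control mice, 1085 ± 367 after TBI, 1011 ± 474 after TBI+DEIX and 1636 ± 303 with DEIX alone. The log2 difference was -0.44 (SE 0.33, 95% interval -1.16 to 0.28, limma adjusted p = 0.523) for TBI against control and -0.59 (SE 0.33, interval -1.31 to 0.13, adjusted p = 0.199) for TBI+DEIX against control. Without TBI+DEIX replicate 1, the library that stood apart, the second of these was -0.95 and was called, with an adjusted p of 0.0141. DEIX against control was 0.19 (adjusted p = 0.77), and TBI+DEIX against TBI was -0.15 (interval -0.87 to 0.57, adjusted p = 0.806). The interval of each uncalled difference includes changes of over 0.5 in log2, so a change of that size in Mpo was not excluded by these libraries.

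Elane (ENSMUSG00000020125.7, chr10:79886247-79888215, plus strand), the elastase whose human gene is mutated in severe congenital and cyclic neutropenia, had the lowest levels in irradiated mice that received DEIX. Control replicates 1 to 3 were at 838, 1111 and 1259 FPKM and the TBI+DEIX replicates at 516, 521 and 612 FPKM. TBI alone gave 1037, 717 and 550 FPKM, and DEIX alone gave 1418, 929 and 926 FPKM. The TBI+DEIX libraries were all below the controls and below the DEIX libraries, while the TBI libraries overlapped with every other group. Mean Elane was 1069 ± 214 FPKM (SD, n = 3) in control and 550 ± 54.2 in TBI+DEIX, which is 48.6% lower. In between lay TBI at 768 ± 247 FPKM, and DEIX was at 1091 ± 283 FPKM.

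Elane fell by 0.94 on the log2 scale in TBI+DEIX against control (SE 0.26, 95% interval -1.52 to -0.36, limma adjusted p = 0.0208). Groups that do not overlap were common in that comparison, at 44.9% of all tested genes. Those lower in TBI+DEIX without overlap were 21.1% of all tested genes. The call rested on few libraries. It was lost without control replicate 2 (-0.91, adjusted p = 0.0707), without control replicate 3 (-0.81, adjusted p = 0.0808) and without TBI+DEIX replicate 2 (-0.91, adjusted p = 0.0512). These fits called 18.2%, 20.1% and 28.6% of all tested genes, against 30% in the main fit. The Elane call held without TBI+DEIX replicate 1, at -0.90 with an adjusted p of 0.027. With any 1 library left out, the difference lay between -1.11 and -0.81. Neither TBI against control (-0.50, SE 0.26, interval -1.08 to 0.07, adjusted p = 0.347) nor TBI+DEIX against TBI (-0.44, SE 0.26, interval -1.02 to 0.14, adjusted p = 0.316) was called. The difference of Elane between DEIX and control was 0.02 (interval -0.56 to 0.60, adjusted p = 0.975). The interaction for Elane was -0.46 (interval -1.28 to 0.36, adjusted p = 0.926), so a different response to DEIX in irradiated and unirradiated mice was not shown.

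Prtn3 (ENSMUSG00000057729.12, chr10:79874476-79883174, plus strand), the close relative of elastase that lies directly upstream of it, was, like Mpo, highest in DEIX replicate 1 and had no called difference. Control replicates 1 to 3 were at 396, 523 and 746 FPKM and the TBI replicates at 655, 383 and 301 FPKM. The TBI+DEIX replicates were at 567, 358 and 507 FPKM and the DEIX replicates at 1008, 440 and 569 FPKM. Every group overlapped with every other one. Mean levels were 555 ± 177, 446 ± 185, 477 ± 108 and 672 ± 297 FPKM (SD, n = 3) in the same order of groups. The log2 difference of Prtn3 in TBI+DEIX against TBI was 0.15 (interval -0.66 to 0.95, adjusted p = 0.829), and its difference in TBI+DEIX against control was -0.20 (SE 0.37, adjusted p = 0.719). The annotated model of Prtn3 overlaps that of Plppr3 on the other strand. Whether reads were assigned by strand is not given in the sources used here.

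Ctsg (ENSMUSG00000040314.2, chr14:56099881-56102574, minus strand), the chymotrypsin-like protease of the granule, had its lowest libraries in irradiated mice. Controls were at 257, 305 and 342 FPKM and TBI libraries at 321, 178 and 132 FPKM. TBI+DEIX libraries were at 322, 174 and 283 FPKM and DEIX libraries at 447, 300 and 296 FPKM. As for Mpo, TBI replicate 1 was within the control range and TBI replicates 2 and 3 were below it. The difference for TBI against control was -0.61 (SE 0.32, 95% interval -1.32 to 0.10, adjusted p = 0.353), the most negative of the 6 genes in that comparison. For TBI+DEIX against TBI it was 0.36 (interval -0.35 to 1.07, adjusted p = 0.513), the most positive of the 6. Leaving out 1 library gave -0.96 to -0.32 for TBI against control and 0.07 to 0.71 for TBI+DEIX against TBI.

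Prss57 (ENSMUSG00000020323.14, chr10:79781474-79790961, minus strand), known as neutrophil serine protease 4, varied least. Its lowest library was 15.9 FPKM (TBI+DEIX replicate 2) and its highest was 29.8 FPKM (DEIX replicate 1), a 1.88-fold span, against spans of 2.75-fold to 4.12-fold for the other 5 genes. Group means were 21.1 ± 3.65 FPKM in control mice, 20.2 ± 4.52 after TBI, 20.6 ± 4.75 after TBI+DEIX and 22.7 ± 6.39 with DEIX alone (SD, n = 3). The differences lay between -0.06 and 0.09 in the 4 comparisons of groups. The 95% interval for TBI against control ran from -0.57 to 0.44. The annotated model of Prss57 overlaps that of Fstl3 on the other strand, and Fstl3 was at a lower level.

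Ctsc (ENSMUSG00000030560.17, chr7:88278085-88310888, plus strand) was the 1 gene of the 6 with its lowest group mean in control. Control libraries lay close together at 77.5, 70.7 and 65.4 FPKM. TBI gave 135, 89.0 and 55.0 FPKM, TBI+DEIX gave 53.4, 107 and 154 FPKM, and DEIX gave 220, 110 and 134 FPKM. All 3 DEIX libraries were above all 3 controls, whereas each irradiated group had 1 library below the controls and 2 above. Mean Ctsc was 71.2 ± 6.08 FPKM in control and 155 ± 57.8 in DEIX (SD, n = 3), 2.17 times as high. The log2 difference was 1.05 (SE 0.40, 95% interval 0.18 to 1.92), with an unadjusted p of 0.0228 and a limma adjusted p of 0.133, so it was not called in the model of all 4 groups.

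With only the control and DEIX libraries in the model, the same Ctsc difference had an adjusted p of 0.0182, in a fit that called 18.7% of all tested genes. In that comparison 40.6% of all tested genes had groups that do not overlap, and 23.4% were of this kind and higher in DEIX. Ctsc was not called in the comparisons with irradiated mice either. Its log2 difference was 0.29 for TBI against control (interval -0.58 to 1.17, adjusted p = 0.752), 0.43 for TBI+DEIX against control (interval -0.44 to 1.30, adjusted p = 0.442) and 0.14 for TBI+DEIX against TBI (interval -0.74 to 1.01, adjusted p = 0.852). The interaction for Ctsc was -0.91 (SE 0.56, interval -2.15 to 0.32, adjusted p = 0.846).

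The ratio of genes within a library does not depend on how that library was scaled. Mpo was between 1.23 and 1.75 times the Elane level in 11 libraries and 3.0 times in TBI+DEIX replicate 1. The low Elane of that library thus stood beside an Mpo of 1547 FPKM, the highest of its group, while in TBI+DEIX replicates 2 and 3 both genes were low, at ratios of 1.25 and 1.36. Ctsg kept close to Mpo, with Mpo between 2.95 and 6.24 times as high. Ctsc did not. Mpo exceeded Ctsc by 16.2, 20.7 and 23.8 times in the control libraries, by 11.2, 10.4 and 14.9 times in TBI, and by 8.85, 12.2 and 12.1 times in DEIX. The control ratios overlapped with neither of those groups. For levels rather than ratios, 38.2% of all tested genes in TBI and 40.6% in DEIX did not overlap with control. In TBI+DEIX the ratios were 29.0, 6.08 and 5.4, so replicate 1 was above every other library and replicates 2 and 3 were below every other library. These ratios were looked at after the levels were known and carry no test, and 3 against 3 libraries could give no exact two-sided p below 0.1.

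**Figure D3:**
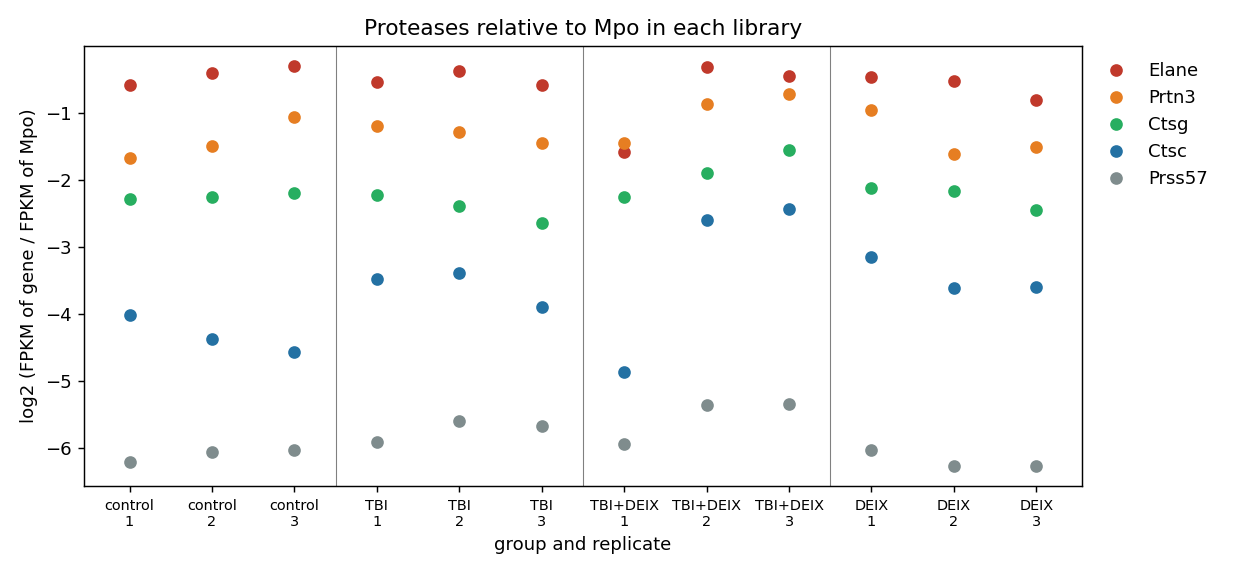
Log2 of the FPKM of each of 5 genes over the FPKM of Mpo (vertical axis) in each of the 12 libraries (horizontal axis, group and replicate). Elane drops to -1.58 in TBI+DEIX replicate 1 against -0.81 to -0.30 elsewhere, and Ctsc runs from -4.86 to -2.43.

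Mpo and the 4 serine proteases varied together from library to library, with correlations of 0.57 (Elane and Prss57) to 0.93, and Ctsc had lower values over all libraries. Over the 12 libraries the Pearson correlation of log2(FPKM + 1) was 0.93 for Prtn3 and Prss57, 0.91 for Prtn3 and Ctsg, 0.85 for Mpo and Ctsg, 0.80 for Mpo and Prtn3, and 0.76 for Mpo and Elane. After the group means were taken off it was 0.96, 0.91, 0.87, 0.79 and 0.55 for the same pairs, so libraries of 1 group differed together as well. The 10 pairs without Ctsc lay between 0.55 and 0.96 after that step. Ctsc correlated with the others at between 0.16 (Mpo) and 0.48 (Prtn3), and after the group means were taken off at between -0.01 (Mpo) and 0.68 (Elane). The last is above the 0.55 of Mpo and Elane, so the 2 sets of values overlap within groups. These values describe 12 libraries that fall into 4 groups and share depth and composition, and no p is given. DEIX replicate 1 was the highest library for each of the 6 genes.

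Promoters of the granule genes are shown because factors of the promyelocyte programme bind short motifs near these starts. RefSeq windows on GRCm38.p6, from 250 bases before to 50 bases after the start, were matched for 5 of the 6 genes, all but Prss57. Each is printed 5′ to 3′ on the gene's strand up to the first base of a GENCODE exon or of the RefSeq start. Motif matches that lie wholly within the printed stretch are in capitals. Matches that reach past its end are not marked. These are MYB matches of Mpo (-165), Elane (-50 and -20), Prtn3 (-55) and Ctsc (-38), and the RUNX match of Ctsc (-46). RefSeq and GENCODE place some starts differently. The Prtn3 stretch ends ahead of an internal exon of the GENCODE model given above, inside that model, while those of Mpo and Elane end just before their GENCODE starts. The coordinates are chr11:87793534-87793580 (plus) for Mpo, chr10:79886062-79886246 (plus) for Elane, chr10:79879417-79879613 (plus) for Prtn3, chr14:56102575-56102824 (minus) for Ctsg and chr7:88277835-88278023 (plus) for Ctsc.
Mpo: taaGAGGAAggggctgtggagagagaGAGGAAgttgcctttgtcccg
Elane: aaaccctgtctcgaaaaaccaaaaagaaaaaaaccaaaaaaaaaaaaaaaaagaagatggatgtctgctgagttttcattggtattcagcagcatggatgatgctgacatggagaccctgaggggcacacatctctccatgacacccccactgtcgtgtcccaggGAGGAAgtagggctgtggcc
Prtn3: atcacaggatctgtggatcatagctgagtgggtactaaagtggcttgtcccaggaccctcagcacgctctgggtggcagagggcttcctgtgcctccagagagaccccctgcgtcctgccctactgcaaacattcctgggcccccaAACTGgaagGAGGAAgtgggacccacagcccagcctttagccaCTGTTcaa
Ctsg: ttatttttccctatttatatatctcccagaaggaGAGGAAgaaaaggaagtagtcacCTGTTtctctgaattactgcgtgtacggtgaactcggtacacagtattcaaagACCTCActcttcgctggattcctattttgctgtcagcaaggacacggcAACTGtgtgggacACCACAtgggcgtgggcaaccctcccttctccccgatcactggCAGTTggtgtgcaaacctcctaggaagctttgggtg
Ctsc: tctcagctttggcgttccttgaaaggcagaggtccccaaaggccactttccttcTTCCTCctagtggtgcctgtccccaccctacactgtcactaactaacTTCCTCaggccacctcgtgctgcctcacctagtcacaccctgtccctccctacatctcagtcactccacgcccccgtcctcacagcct

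Each window was searched on both strands for GAGGAA (the core bound by PU.1, the product of Spi1), TTGCNNAA (C/EBP), TGNGGT (RUNX) and AACNG (MYB). GAGGAA or its complement was found in all 5 windows, against 28.3% of the 32817 RefSeq windows of 300 bases. In Elane it lay at -85 to -80 and in Prtn3 at -95 to -90 from the RefSeq start, on the gene's strand in both, and Mpo held it at -247 and -224. Ctsc held 2 matches as well, on the other strand. MYB letters were also in all 5 windows, but they occur in 80.3% of all windows. RUNX letters were in Ctsg and Ctsc (45.8% of all windows), and C/EBP letters were in 0 of the 5 windows (10.8% of all windows). A match is a description of letters, and binding was not measured.

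Of the genes outside the 6 whose level followed their mean most closely over the 12 libraries, Cst7 stood first, with a correlation of 0.90. It encodes cystatin F, an inhibitor of cathepsin C. The next were Mlkl (0.89), Tfec (0.88), Gstm1 (0.87), Nagpa (0.84) and Ddost (0.84), of 8171 genes ranked. Cst7 was at 45.0 ± 2.22 FPKM in control mice, 34.0 ± 8.61 after TBI, 31.7 ± 5.57 after TBI+DEIX and 51.9 ± 11.9 with DEIX alone (SD, n = 3). Its difference for TBI+DEIX against control was -0.50, with an adjusted p of 0.0794. Plppr3, which shares annotated bases with Prtn3, was among the 10 closest genes at 0.81.

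Of 7 tested inhibitors of these enzymes 1 was called, in TBI+DEIX against control, where 30% of all genes were called and 16.9% were called higher, and 0 were called in any other comparison (the median of the 7 in that comparison was -0.36, against 0.02 over all genes). Serpinb1a, a serpin that inactivates elastase, proteinase 3 and cathepsin G, was the one that rose, by 1.01 (SE 0.23, adjusted p = 0.00747). Its level was 222 ± 17.3 FPKM in control mice, 314 ± 58.5 after TBI, 454 ± 92.4 after TBI+DEIX and 391 ± 120 with DEIX alone. The call was kept in 15 of 15 alternative analyses. Serpinb1a thus rose in the comparison in which Elane fell. Slpi, another elastase inhibitor, spanned 157 to 3855 FPKM among the 3 TBI+DEIX libraries and was not called.

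Genes that pack and move granules were higher in TBI+DEIX than in control for 4 of 7 tested, with 0 lower, where 16.9% of all tested genes were called higher, and the median of the 7 was 0.38. Unc13d, which primes granules for fusion, rose by 0.64 (SE 0.08, adjusted p = 0.000514), Rab27a, which docks them, by 0.68 (adjusted p = 0.00985), and Lyst, whose loss gives giant granules, by 0.86 (adjusted p = 0.00919). The fourth was Ap3b1, at 0.38, a call lost in 5 of 15 alternatives. The Unc13d and Rab27a calls were each lost in 1 of 15. Serglycin (Srgn), the proteoglycan that holds the proteases, was 0.11 (adjusted p = 0.693). Against TBI, only Unc13d of the 7 was called in TBI+DEIX, at 0.34 (adjusted p = 0.036), a call lost in 9 of 15 alternatives. Of all tested genes 4.69% were called higher there. In DEIX against control only Rab27a was called, at 0.59 (adjusted p = 0.0499), a call lost in 11 of 15 alternatives, beside 4.52% of all tested genes called higher. In TBI against control 0 of the 7 were called by limma, beside 3.99% of all tested genes.

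Other azurophil granule contents were called in 1 comparison. Of 6 tested, 3 were higher and 1 was lower in TBI+DEIX than in control, beside 16.9% and 13.1% of all tested genes, and 0 were called in the other comparisons. The 3 were the lysosomal hydrolases Gusb (0.54, adjusted p = 0.0139), Man2b1 (0.50) and Fuca1 (0.48). Of 15 alternatives, 3 lost the Gusb call, 7 the Man2b1 call and 6 the Fuca1 call. Npc2, a cholesterol carrier of lysosomes, fell by 0.74 (adjusted p = 0.023), a call lost in 3 of 15 alternatives. The 3 hydrolases are made in most cell types.

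Among 8 regulators of promyelocyte genes, Myb was called in all 3 comparisons with control. It encodes a transcription factor of progenitor cells that acts on Mpo and Elane. Myb was at 78.9 ± 2.02 FPKM in control mice, 46.0 ± 6.55 after TBI, 36.8 ± 5.42 after TBI+DEIX and 45.9 ± 2.23 with DEIX alone (SD, n = 3), and all libraries of the 3 other groups were below all controls. Of all tested genes, 16.3% in TBI, 17.2% in DEIX and 21.1% in TBI+DEIX were lower than control without overlap. It fell by 0.77 in TBI (SE 0.12, adjusted p = 0.00643), by 0.77 in DEIX (adjusted p = 0.00753) and by 1.09 in TBI+DEIX (adjusted p = 0.000299). The calls in TBI and in DEIX were each lost in 2 of 15 alternatives, both TPM scales. Early B lineage and erythroid cells express Myb too, and the counts of their markers in each of these comparisons are given further on. B lineage markers were below control on their summed level in all 3 groups, at 30.0 to 366 FPKM in TBI, 65.8 to 100 FPKM in DEIX and 7.64 to 184 FPKM in TBI+DEIX against 431 to 518 FPKM. The part of those cells in the fall of Myb was not tested.

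Spi1, the gene of PU.1, rose in TBI+DEIX against control by 0.71 (SE 0.17, adjusted p = 0.0109) and against TBI by 0.68 (adjusted p = 0.0386, lost in 8 of 15 alternatives). Its level was 165 ± 17.4, 170 ± 23.3, 274 ± 54.6 and 229 ± 34.3 FPKM in control, TBI, TBI+DEIX and DEIX. Cebpb rose by 0.60 in TBI+DEIX against control (adjusted p = 0.0319), a call lost in 6 of 15 alternatives. Cebpe, needed for secondary granules, was 0.40 (adjusted p = 0.408) and Cebpa -0.48 (adjusted p = 0.0662) in that comparison, neither called. The median of the 8 regulators was 0.23.

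Proteases of other cells that Ctsc also activates were low in this marrow, and 2 of 7, Gzma and Gzmb, passed the filter. Gzma, a granzyme of cytotoxic lymphocytes, was at 17.9 ± 4.69 FPKM in control and between 3.49 and 4.86 FPKM on average in the other groups. Against control its log2 difference was -2.06 in TBI, -1.73 in DEIX and -1.79 in TBI+DEIX (adjusted p = 0.00378, 0.00967 and 0.0018), all called, with the DEIX call lost in 1 of 15 alternatives. Gzmb was called in none of the comparisons.

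Marker lists of cell types are given beside the granule genes. In TBI+DEIX against control, the counts below stand beside 16.9% of all tested genes called higher and 13.1% called lower. Of 8 promyelocyte markers, 1 was higher (Igsf6, 0.56) and 1 lower (Plac8, -0.73) in TBI+DEIX than in control, both calls lost in 8 of 15 alternatives, and their summed level was 1401 to 1718 FPKM in control mice, 1199 to 1642 after TBI, 1199 to 1925 after TBI+DEIX and 1357 to 2008 with DEIX alone. None of these ranges was separate from another. Of 11 markers of later neutrophils, which make secondary granules, 6 were higher in TBI+DEIX than in control and 0 were lower. The calls of Mmp9, Cd177 and Cxcr2 were kept in 15 of 15 alternatives, and those of Ltf, Padi4 and Chil3 were lost in 8, 5 and 10. Their summed level was 26978, 57268 and 54985 FPKM in TBI+DEIX replicates 1, 2 and 3 against 24340 to 33301 FPKM in control, so replicate 1 was within the control range. Of 8 monocyte markers 4 were lower, with Irf8, Klf4 and Ly86 kept in 15 of 15 alternatives and Ms4a6c lost in 8. Their summed level was 786, 1967 and 2677 FPKM in the 3 TBI+DEIX libraries against 2098 to 2132 FPKM in control, with replicate 3 above every control. Erythroid markers were lower for 8 of 9 (191 to 2162 against 4701 to 7798 FPKM) and B lineage markers for 8 of 10 (7.64 to 184 against 431 to 518 FPKM). Basophil and mast cell markers were lower for 1 of 7, and proliferation genes for 2 of 13, both close to that background. No tested marker of these lists was at 0 in any library. The part of these shifts in the fall of Elane was not tested.

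**Figure D4:**
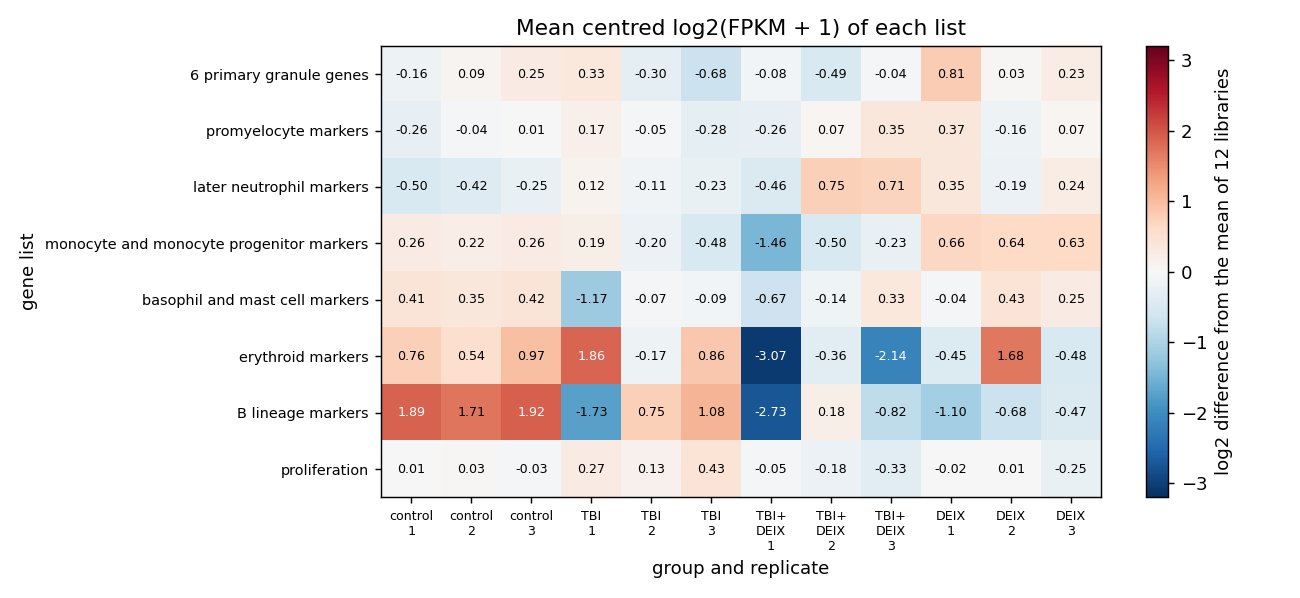
Mean log2(FPKM + 1) of each gene list (rows), each gene taken as its difference from its 12-library mean (columns, group and replicate), printed and coloured from blue (lower) to red (higher). The 6 granule genes run from -0.68 in TBI replicate 3 to 0.81 in DEIX replicate 1, a narrower span than the erythroid row, from -3.07 to 1.86.

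In TBI against control, 0 of the 8 promyelocyte markers and 0 of the 11 later neutrophil markers were called by limma, beside 2 of 10 B lineage markers, Ms4a1 (-3.92) and Cd72 (-3.16), both lower. Of all tested genes, 0.891% were called higher and 3.1% lower in that comparison, so counts of 0 are near that background. Of 9 erythroid markers 0 were called there, with 5 above and 4 below 0 and a median of 0.02. The median difference was -0.39 for the 6 granule genes, 0.15 for the promyelocyte markers and 0.05 for all genes tested. In DEIX against control the 6 had a median of 0.19, beside 0.21 for the promyelocyte markers and 0.61 for the later neutrophil markers. The counts called in that comparison stand beside 4.52% of all tested genes called higher and 2.72% called lower. Of the 11 later neutrophil markers, 10 were above 0 and 1 was called, Cd177 (0.80, adjusted p = 0.0448, lost in 8 of 15 alternatives), and their summed level overlapped with control (29649 to 42042 against 24340 to 33301 FPKM). Monocyte markers also had a median of 0.61 there, with 6 of 8 above 0 and 1 called, F13a1 (0.98, adjusted p = 0.0234, lost in 7 of 15 alternatives). Their summed level was 2292 to 2764 FPKM in DEIX against 2098 to 2132 FPKM in control, ranges that do not overlap. Ly6c2, the monocyte marker with the highest mean level (1460 FPKM), changed by 0.05. The 2 monocyte markers below 0, Irf8 (-0.30) and Ly86 (-0.32), were lower in every DEIX library than in every control. Ctsc was higher in every DEIX library than in every control, as were 23.4% of all tested genes. The part of monocytes or later neutrophils in the Ctsc difference was not tested. B lineage markers were below 0 for 10 of 10 in DEIX against control (median -2.45), with 2 called, Rag1 (-3.29, lost in 9 of 15 alternatives) and Cd72 (-2.64, lost in 4 of 15). Erythroid markers were below 0 for 9 of 9 (median -0.60), with 0 called by limma, and their summed levels overlapped with control. In TBI+DEIX against control the 6 had a median of -0.22, beside 0.28 for the promyelocyte markers and 0.94 for the later neutrophil markers. In TBI+DEIX against TBI, 3 of 9 erythroid markers, 2 of 8 monocyte markers and 4 of 13 proliferation genes were called, all lower. Of all tested genes 3.41% were called lower there. In that comparison 0 markers of the promyelocyte, later neutrophil, B lineage and basophil lists were called. The part of these shifts in the Spi1 and Unc13d calls was not tested.

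Elane, Prtn3 and Prss57 lie within 100 kb of each other on chromosome 10, and the genes around them were read from the same table. Of 8 tested neighbours from a list of 11, 3 were higher in TBI+DEIX than in control and 0 were lower, beside 16.9% and 13.1% of all tested genes. These were Palm (0.66, adjusted p = 0.00633), Kiss1r (0.99, adjusted p = 0.0325) and Arid3a (0.75, adjusted p = 0.0082). The Kiss1r call was lost in 7 of 14 alternatives and the Palm call in 2 of 15. Elane, the gene of this stretch with the highest level, fell in the same libraries. Cfd, the nearest gene downstream, at 4.6 kb, was not tested for its low level.

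**Figure D5:**
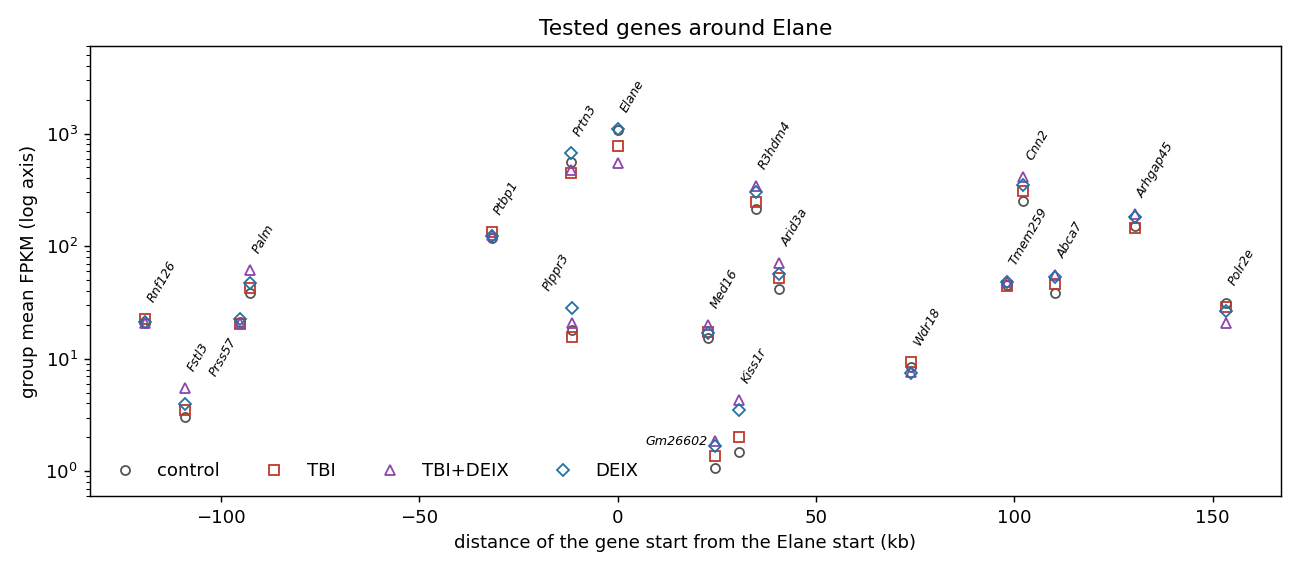
Group mean FPKM (vertical log axis) of tested genes by distance of their start from the Elane start in kb (horizontal axis), 1 symbol per group. Elane is the highest gene of the stretch and has its lowest symbol in TBI+DEIX, whereas Palm and Arid3a have their highest there.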

How the data were processed

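RNA of 12 whole marrow libraries was analysed from 1 deposited table of FPKM values. STAR 2.6, Cufflinks 2.2.1 and the mm10 build are named in the submitters' processing notes, which give no roles, and the directional MGI kit is named in the labels' protocols. The authors' FPKM values are per transcript length and relative to the mapped fragments of a library, hold no counts and allow no count model. All 21853 gene identifiers matched GENCODE vM21.

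Groups were compared with limma 3.58.1 in R 4.3.3 (lmFit, contrasts.fit, eBayes with trend) on log2(FPKM + 1), in 1 model of 4 group means over 12 libraries with 8 residual degrees of freedom. This scale understates changes of low genes. Genes with at least 1 FPKM in at least 3 libraries were tested (10994), and a Benjamini-Hochberg adjusted p under 0.05 was a call. The procedure was also run on simulated data with the same spread per gene in all groups. The unequal spread of the groups seen here was thus not simulated.

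The 6 genes and all lists were chosen with earlier results of these data known, so no list is independent evidence. All 6 genes are named in every comparison. From other lists, called genes and the 3 of highest level could be named, and the 10 genes most correlated with the 6 (mean FPKM of at least 5). Srgn, Slpi and Cst7 fall under these rules, and Ap3b1, Man2b1 and Fuca1 as called genes. A gene of the list of other granule contents is not reported here. Cebpa was named for its role, with its values known. Alternatives were another pseudocount, other filters, TPM and median-ratio scaling, only the groups compared, a replicate block, leaving out each library, and, added after seeing the data, array weights and a TPM scale without S100a8, S100a9 and Ngp, which are listed at 0 in some libraries.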

Additional observations from a re-analysis of the deposited data

How the results depend on the processing

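The counts of called genes (439, 796, 891, 3299 and 22 for TBI against control, DEIX against control, TBI+DEIX against TBI, TBI+DEIX against control and the interaction) depended on the processing, and the cause was not tested. A pseudocount of 0.1 gave 11 for the interaction, no filter gave 675 for TBI against control and 37 for the interaction, and a mean FPKM of at least 5 gave 134 and 7. The TPM scale gave 253, 282, 157 and 1785 in the order above without the interaction. Its share of calls that were higher fell from 62.4% to 19.1% in DEIX against control and from 56.2% to 30.6% in TBI+DEIX against control, with a shift of the median gene of up to -0.14. Fits on only the groups compared gave 1417, 2057, 0 and 2181. Array weights, added after seeing the data, gave 4218, 4507, 4489, 6188 and 532. TPM without S100a8, S100a9 and Ngp, also added, gave 295, 419 and 492 for the first 3. Leaving out 1 library gave 153 to 259, 146 to 938, 5 to 2836, 2004 to 4232 and 4 to 331 genes.

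Of the 6 granule genes, 1 (Ctsc) was called in DEIX against control with only those groups in the fit. Array weights called 3 in TBI against control (Mpo -0.60, Elane -0.60, Ctsg -0.74), 1 in DEIX against control (Ctsc) and 3 in TBI+DEIX against control (Elane, Mpo and Ctsc), in fits that called 38.4%, 41% and 56.3% of all genes. These weights were 11 for control replicate 2 and 0.0708 for TBI+DEIX replicate 1. Leaving out 1 library gave 0 to 2 called in TBI+DEIX against control. Elane in that comparison kept its direction in every alternative run. Other directions turned, in differences that were not called. Elane in DEIX against control was -0.13 on the TPM scale, -0.01 with median-ratio scaling, -0.01 with array weights and -0.02 on TPM without the 3 genes. Prss57 was -0.06 on the TPM scale in DEIX against control, and in TBI+DEIX against TBI it was -0.10 on the TPM scale, -0.11 with array weights and -0.08 on TPM without the 3 genes.

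Leaving out 1 library also turned directions. For TBI against control Ctsc ranged from -0.02 to 0.62 and Prss57 from -0.22 to 0.08. For DEIX against control the ranges were -0.01 to 0.29 (Ctsg), -0.18 to 0.15 (Elane), -0.12 to 0.25 (Prss57) and -0.10 to 0.50 (Prtn3). For TBI+DEIX against TBI they were -0.20 to 0.56 (Ctsc), -0.51 to 0.12 (Mpo), -0.13 to 0.19 (Prss57) and -0.10 to 0.46 (Prtn3). For TBI+DEIX against control they were -0.43 to 0.01 (Ctsg), -0.19 to 0.13 (Prss57) and -0.41 to 0.04 (Prtn3). For the interaction they were -0.12 to 0.52 (Ctsg), -0.23 to 0.14 (Prss57) and -0.35 to 0.25 (Prtn3).

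Little sign of a pairing by the replicate numbers of the labels was seen. Of 18 same-numbered pairs, 3 had deviations that correlated above 0.1, and 1 of 12 libraries correlated best with its own number. With 3 libraries a group, these values cannot exclude a pairing. A replicate block gave 378, 640, 474, 3000 and 20 called genes and 0, 0, 0, 1 and 0 of the 6. Without counts, depth limits the precision of low genes to an unknown degree.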
